A study of Mus musculus with 32 samples.

Results

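The nuclear-encoded subunits of oxidative phosphorylation were followed across 3 RNA-seq experiments from mouse lumbar spinal cord. Members were chosen by gene symbol among protein-coding genes: names beginning with Nduf followed by a, b, c, s or v and a digit (complex I, 39 genes), Sdha to Sdhd (complex II, 4 genes), Uqcr (complex III, 8 genes), Cox4 to Cox8 (complex IV, 19 genes) and Atp5 (complex V, 19 genes). This gave 89 of the 74021 genes in the sorted-microglia and spinal cord tables and 89 of the 74016 genes in the stage table. By this name rule Ndufa4, now regarded as a complex IV protein, was counted in complex I, the retrocopies Cox5b-ps and Ndufb11b were kept because the annotation calls them protein-coding, and Atp5po entered under 2 Ensembl identifiers, one of which (ENSMUSG00000116933) had 0 counts in every library.

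The study examined LAG-3, an immune checkpoint receptor, in SOD1G93A mice, a model of amyotrophic lateral sclerosis in which a human mutant SOD1 transgene is expressed. CD11b+/CD45int microglia were sorted from the lumbar cord of WT animals, which lack the transgene (n = 4 libraries), and from SOD1G93A mice at postnatal day 140 (P140) into LAG-3-low (n = 5) and LAG-3-high (n = 5) fractions. In the stage experiment the same gate was applied at P120 and P140 (n = 3 each) to 2 genotypes, SOD1G93A/LAG-3-/- and, as controls, SOD1G93A/LAG-3+/+, and whole lumbar cord was sequenced from both genotypes at P140 (n = 3 each). All groups other than WT carried the SOD1G93A transgene, and the LAG-3 deletion was germline, so it affected every cell type. The LAG-3 sorts differ by a protein on the surface of the cells, not by treatment.

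Oxidative phosphorylation is the process by which mitochondria make ATP. Complexes I and II pass electrons from NADH and succinate to ubiquinone, complex III passes them on to cytochrome c, complex IV reduces oxygen, and complex V (ATP synthase) uses the resulting proton gradient to make ATP. All complexes except complex II also hold subunits encoded by the mitochondrial genome, so that subunits from both genomes are assembled together. Microglia change the balance between oxidative phosphorylation and glycolysis when they become reactive.

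The libraries held 9403475 to 22850586 estimated counts in the sorted experiment, 23981406 to 49512632 in the stage experiment and 19430102 to 26994524 in the cord. Lag3 itself followed the labels, at 169.4 ± 18.0 CPM (counts scaled to a common library total with TMM factors; SD, n = 5) in LAG-3-high, 43.5 ± 8.7 CPM in LAG-3-low and 4.6 ± 4.6 CPM in WT microglia, and at 0.29 CPM or less on average in microglia of LAG-3-/- mice. LAG-3-/- cords held 5.61 ± 0.11 CPM against 59.8 ± 15.6 CPM in LAG-3+/+ cords. Of the 89 members, 81, 82 and 83 passed the filter on low counts in the sorted, stage and cord experiments. The members that failed in every experiment were Ndufb11b, Cox7b2, Cox8b, Cox8c and the second Atp5po entry, while Ndufa4l2 and Cox4i2 failed in both microglial experiments and Cox5b-ps failed in the sorted and cord experiments. WT replicates 1 and 4 stood apart: genes with transcripts under 1 kb took 25.7% and 32.1% of their counts, against 10.2% and 11.5% in WT replicates 2 and 3. In 61 of the 78 members compared among the sorted libraries, both of these libraries lay above both other WT libraries, and WT replicate 4 was the highest of all 14 libraries for 60.

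Most members have short transcripts. The canonical transcripts (GENCODE M39) ranged from 371 to 7389 nt with a median of 990 nt, and the median coding length was 423 nt. Transcript length differed by complex, with medians of 990 nt in complex I, 3141 nt in complex II, 1595 nt in complex III, 680 nt in complex IV and 1179 nt in complex V. Because several comparisons moved with transcript length over all genes, the comparisons below are given with the medians of protein-coding genes of 4 length classes (transcripts under 1 kb, 1 to 2 kb, 2 to 4 kb and over 4 kb) and with fits in which length and GC content were entered as offsets.

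Promoters are shown for 4 chosen members, because members of this group are textbook targets of NRF-1, ETS-family factors and YY1. Sdhb, Ndufb8 and Uqcr11 are named in the comparisons below, and Cox6a1 is the reference for Cox6a2, for which no promoter was found. A promoter was found in RefSeq (GRCm38.p6) for 69 of the 89 entries, or 68 genes, and the 250 bases before the start site were searched on both strands. The NRF-1 letters (GCGC, any 2 bases, GCGC) were present in 13 of the 68 (19.1%) against 5.09% of 27025 genes, and the ETS letters CCGGAAGT in 3 (4.41%) against 2.93%. The YY1 letters AAGATGG were present in none (0% against 4.53%) of these windows, the SP1 letters GGGGCGGGG in 9 (13.2% against 10.5%) and the TATA letters TATAAAA in 2 (2.94% against 5.30%). In the sequences, written 5′ to 3′ on the strand of the gene, capitals mark matches to these letters. Sdhb holds the SP1 letters on the reverse strand 134 bases before the start, Cox6a1 the NRF-1 letters 162 and 117 bases before it, Uqcr11 the ETS letters 66 bases before it, and Ndufb8 none of the 5 motifs. These are matches of letters and not binding sites.
Sdhb, chr4:140961021-140961270, plus strand: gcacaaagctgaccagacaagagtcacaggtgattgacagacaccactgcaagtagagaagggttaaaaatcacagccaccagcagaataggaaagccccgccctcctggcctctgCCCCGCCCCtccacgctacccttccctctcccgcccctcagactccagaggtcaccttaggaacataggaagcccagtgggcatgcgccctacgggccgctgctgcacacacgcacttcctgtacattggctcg
Ndufb8, chr19:44555443-44555692, minus strand: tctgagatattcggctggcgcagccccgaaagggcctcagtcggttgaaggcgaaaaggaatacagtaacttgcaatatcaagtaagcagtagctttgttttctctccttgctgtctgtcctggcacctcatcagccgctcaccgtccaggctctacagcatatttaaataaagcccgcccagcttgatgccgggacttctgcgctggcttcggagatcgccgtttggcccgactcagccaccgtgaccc
Cox6a1, chr5:115348959-115349208, minus strand: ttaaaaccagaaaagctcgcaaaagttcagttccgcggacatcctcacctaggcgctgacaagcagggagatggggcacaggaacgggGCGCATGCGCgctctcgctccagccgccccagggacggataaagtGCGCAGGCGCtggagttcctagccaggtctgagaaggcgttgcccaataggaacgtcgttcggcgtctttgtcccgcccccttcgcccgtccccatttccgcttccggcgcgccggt
Uqcr11, chr10:80406822-80407071, minus strand: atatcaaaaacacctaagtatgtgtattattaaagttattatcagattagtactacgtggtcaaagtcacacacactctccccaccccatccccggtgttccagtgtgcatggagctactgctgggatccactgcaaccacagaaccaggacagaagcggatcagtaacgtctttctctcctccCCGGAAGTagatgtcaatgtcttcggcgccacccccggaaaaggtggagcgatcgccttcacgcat

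Levels between genes were compared per transcript length only. In the microglial experiments Cox4i1, the ubiquitous form of the regulatory subunit IV of cytochrome c oxidase, had the highest level, with means of 359 CPM per kb in the sorted and 387 CPM per kb in the stage libraries. In the sorted experiment Cox8a (270.0 CPM per kb) and Atp5if1, the inhibitor that binds ATP synthase (267 CPM per kb), came next, and in the stage experiment Cox7c (262 CPM per kb) and Atp5if1 (258 CPM per kb). In the cord Atp5f1b, the catalytic beta subunit of ATP synthase, led with 594 CPM per kb, followed by Cox4i1 (579 CPM per kb) and Cox6c (383 CPM per kb). Among the members that were not at 0, Cox7b2 was lowest in both microglial experiments, at 0.00314 CPM per kb in the sorted libraries, and the retrocopies Cox5b-ps and Ndufb11b were also under 0.5 CPM per kb where they had any counts. The members together made up 0.533% to 1.56% of the counts of a microglial library and 0.778% to 1.38% of a cord library.

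**Figure D1:**
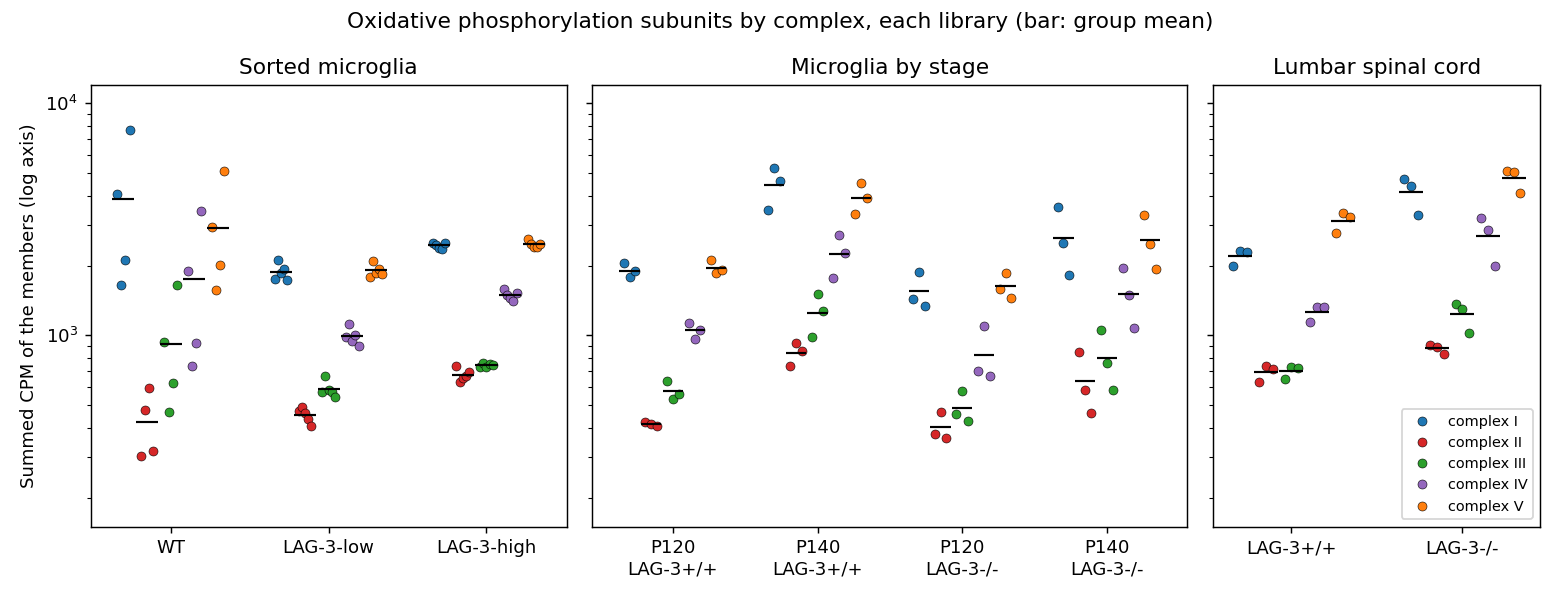
Summed CPM of the members of each complex (log axis) in every library, by experiment and group; colours are complexes and bars are group means. The P140 LAG-3+/+ microglia lie above the P120 LAG-3+/+ microglia in every complex, the LAG-3-/- cords above the LAG-3+/+ cords, and 2 of the WT libraries stand far above the other 2 in complexes I, III, IV and V.

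From P120 to P140, members of all 5 complexes rose together in SOD1G93A/LAG-3+/+ microglia. The summed level of the members was 6344, 5539 and 5820 CPM in the P120 libraries and 10282, 14949 and 12898 CPM in the P140 libraries, which did not overlap. By edgeR's quasi-likelihood test, 73 of the 82 members tested rose and none fell at a Benjamini-Hochberg adjusted p under 0.1, where 11.9% of all 18669 genes tested rose and 15.5% fell. The median log2 fold change was 1.13 over the members and -0.22 over all genes, and 74 members had every P140 library above every P120 library, against 16.8% of all genes, and 1 had every P140 library below (25.4%). In bulk samples, fewer cells of a type and less RNA per cell cannot be told apart.

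All 4 subunits of succinate dehydrogenase (complex II) and all 8 members of complex III rose, as did 34 of 37 in complex I, 10 of 15 in complex IV and 17 of 18 in complex V. Ndufb8 (ENSMUSG00000025204), an accessory subunit of the membrane arm of complex I on chromosome 19 (GRCm39 chr19:44537011-44543939, minus strand), stood at 87.9, 78.6 and 75.5 CPM at P120 and at 185, 348 and 258 CPM at P140. No P140 library overlapped the P120 range, and the log2 fold change was 1.71 (SE 0.31, adjusted p = 0.00699, edgeR). Sdhc, a membrane anchor of succinate dehydrogenase, gave 45.8, 29.8 and 36.8 CPM at P120 and 97.3, 138 and 131 CPM at P140 (log2 fold change 1.71, SE 0.33, edgeR adjusted p = 0.00821). The accessory complex I subunits Ndufb9 and Ndufa12 followed with log2 fold changes of 1.64 and 1.57. Atp5if1 rose from 126, 116 and 122 CPM to 231, 385 and 304 CPM, a log2 fold change of 1.34 (SE 0.24, edgeR adjusted p = 0.00683).

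Several subunits that carry out catalysis had smaller log2 fold changes than these. Atp5f1a and Atp5f1b, which form the catalytic head of ATP synthase, had log2 fold changes of 0.73 (SE 0.19) and 0.83 (SE 0.19), and Sdha, the flavoprotein of complex II, had 0.55 (SE 0.17), with edgeR adjusted p values of 0.0227, 0.0133 and 0.0429. Ndufs1, the largest subunit of the complex I electron-input arm, did not pass: its libraries read 55.5, 63.5 and 61.3 CPM at P120 and 111, 53.3 and 61.7 CPM at P140, a log2 fold change of 0.32 (SE 0.32, edgeR adjusted p = 0.524). The other 8 that did not pass were Ndufb2, Ndufv1, Cox7b, Cox8a, Atp5mc2, Cox6b2, Cox7a1 and Cox5b-ps. The last 4 of these averaged under 5 CPM in both groups.

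The rise moved with transcript length over all genes. The median log2 fold change of protein-coding genes was 1.0 for transcripts under 1 kb, 0.83 for 1 to 2 kb, 0.01 for 2 to 4 kb and -1.04 over 4 kb, and the count-weighted mean transcript length was 3313 to 3398 nt in the P120 and 2489 to 2724 nt in the P140 libraries. Members with transcripts under 1 kb and over 1 kb had medians of 1.14 and 1.08, with 36 of 41 and 37 of 41 called. With transcript length and GC content as offsets, 54 members rose, 53 of them among the 73, and the median was 0.82. With coding length in place of transcript length, a choice made after seeing the data, 15 rose and 1 fell and the median was 0.19. Without TMM factors 43 rose, where 5.2% of all genes rose and 22.1% fell, and without P120 LAG-3+/+ replicate 2 47 rose. For the fits with offsets and without that replicate the share of all genes is not given here. Microglia markers summed to 25118 to 28275 CPM at P120 and 33564 to 40226 CPM at P140, with 2 of 7 called higher and 2 lower. The part of these markers and of transcript length in the rise was not tested.

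**Figure D2:**
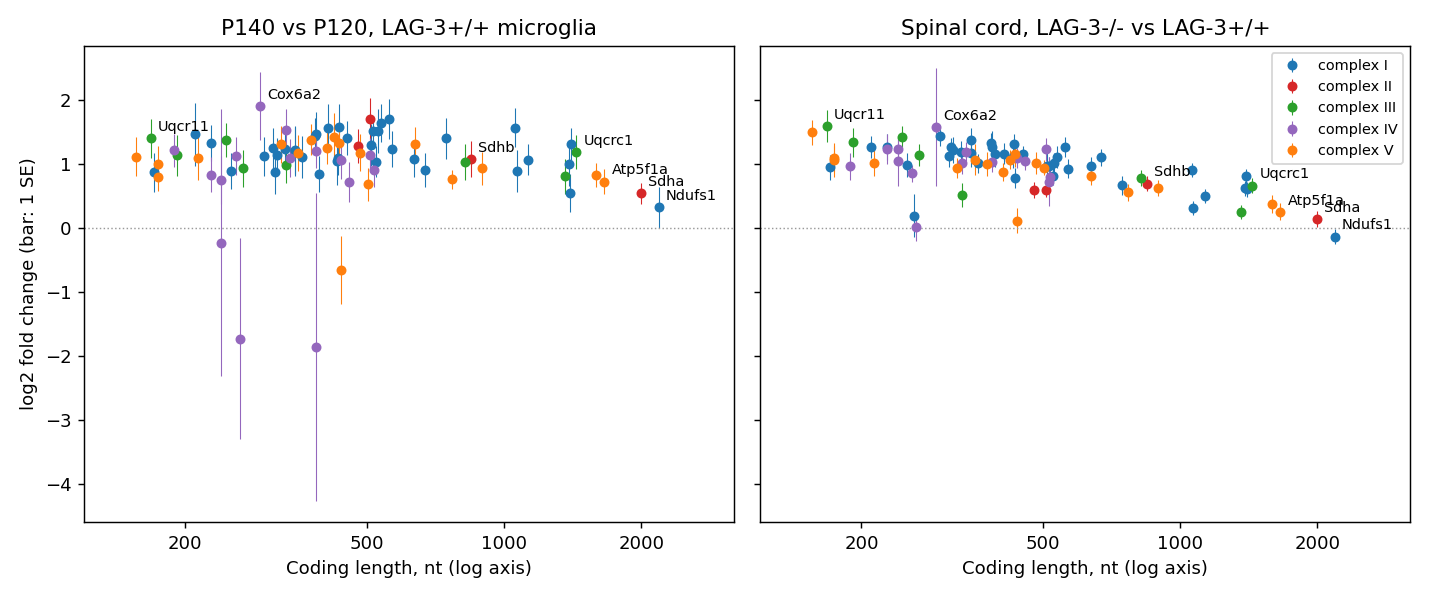
Log2 fold change of each member tested (points, colours are complexes, bars 1 SE) against the coding length of its canonical transcript (log axis), for P140 against P120 in LAG-3+/+ microglia and for LAG-3-/- against LAG-3+/+ cord. In the cord the long coding sequences of Sdha (0.14) and Ndufs1 (-0.13) lie near 0 while Uqcr11 lies at 1.60.

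In SOD1G93A/LAG-3-/- microglia the same interval gave no called gene. By edgeR 0 of 82 members passed, and 0% of all genes. An unadjusted p under 0.05 was found for 62 members and for 1658 of all 18669 genes. DESeq2 called 20 members higher and 0 lower, where 1.92% of all genes were higher and 0.487% lower. Of the 82 members 81 had a log2 fold change above 0, with a median of 0.79 against -0.03 over all genes, and 37 had every P140 library above every P120 library (7.39% of all genes). The summed levels were 4561, 5866 and 4241 CPM at P120 and 10733, 7822 and 5883 CPM at P140, with the highest P120 library just below the lowest P140 library. The members of smallest p were Sdhc (log2 fold change 1.43, SE 0.33), Atp5mc1 (1.04, SE 0.25), which encodes the c subunit of the ATP synthase rotor, and Atp5mf (0.91, SE 0.24), all with an edgeR adjusted p of 0.475. The medians of protein-coding genes were 0.63 under 1 kb, 0.39 for 1 to 2 kb, 0.09 for 2 to 4 kb and -0.23 over 4 kb. The members' median was 0.77 with transcript length and GC offsets and 0.36 with coding length and GC offsets, and 0 were called in each. Neutrophil markers summed to 0.116 to 1.02 CPM at P120 and to 1.03 to 4503 CPM at P140, with 0 of 8 called, and their part was not tested.

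The rise was not shown to differ between the genotypes. By edgeR the genotype-by-stage interaction passed for 0 of 82 members, with 2 at an unadjusted p under 0.05. Of all genes, 0.161% passed upwards and 0.0107% downwards by edgeR. DESeq2 also passed 0 members, where 4.87% of all genes passed upwards and 2.1% downwards. The interaction was below 0 for 73 members, with a median of -0.30 against 0.18 over all genes. Its smallest p values belonged to Ndufa8 (-0.81, SE 0.34, edgeR adjusted p = 0.33), Ndufs3 (-0.95, SE 0.42, edgeR adjusted p = 0.356) and Ndufv3 (-0.72, SE 0.35, edgeR adjusted p = 0.399), each a subunit of complex I. Without P140 LAG-3-/- replicate 1, 4 members passed, all below 0, a count given without the share of all genes. The direction depended on length: the members' median was -0.12 with transcript length and GC offsets (51 members below 0), and turned to 0.16 with coding length and GC offsets (57 above 0 and 25 below), where the median of all genes was 0.22. The length classes had medians of -0.30, -0.39, 0.12 and 0.80, from short to long.

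At P140, part of complex I and of ATP synthase was lower in LAG-3-/- than in LAG-3+/+ microglia. Of 82 members 14 fell and 0 rose by edgeR, 11 in complex I and 3 in complex V, where 3% of all genes fell and 7.22% rose. The median log2 fold change was -0.64, against 0.14 over all genes, and 26 members had every LAG-3-/- library below every LAG-3+/+ library (8.92% of all genes). At a log2 fold change below -1, 2 fell (1.45% of all genes). No member of complexes II, III or IV passed, but their median log2 fold changes were -0.54, -0.61 and -0.49. Those of complexes I and V were -0.75 and -0.58. DESeq2 called 47 of the 82 members lower, where 10.2% of all genes fell. Ndufb8 stood at 185, 348 and 258 CPM in LAG-3+/+ and 175, 104 and 81.1 CPM in LAG-3-/- microglia (log2 fold change -1.14, SE 0.31, edgeR adjusted p = 0.0631). LAG-3-/- replicate 1 lay close to the lowest LAG-3+/+ library.

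Ndufb10, another accessory subunit of the membrane arm, had the largest fall, with a log2 fold change of -1.19 (SE 0.34, edgeR adjusted p = 0.0737), although its libraries overlapped (107, 219 and 168 CPM in LAG-3+/+ against 113, 53.5 and 49.5 CPM). Ndufv3 at -0.96, Ndufb9 at -0.94 and Atp5if1 at -0.93 completed the 5 largest. The smallest called difference was in Atp5pb, the stator subunit b of ATP synthase, whose LAG-3+/+ libraries were close together (252, 251 and 261 CPM) and lay above all LAG-3-/- libraries (208, 160 and 168 CPM).

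These calls rested on single libraries. LAG-3-/- replicate 1 was the highest of its group in 69 of 78 members and replicate 3 the lowest in 74, and the summed levels of the LAG-3-/- libraries were 10733, 7822 and 5883 CPM. Without LAG-3-/- replicate 1, 53 members fell. Without LAG-3-/- replicate 2, LAG-3-/- replicate 3 or LAG-3+/+ replicate 2, 0 did. The share of all genes that fell in these fits, and in those with offsets below, is not given here. The changes in count therefore cannot be read as particular to the members. Over protein-coding genes the medians ran the other way from those of the stage comparison, at -0.58 under 1 kb, -0.50 for 1 to 2 kb, 0.05 for 2 to 4 kb and 0.78 over 4 kb, and with transcript length and GC offsets 4 members fell (median -0.43). With coding length and GC offsets 1 fell, the median was -0.054 and 34 members lay above 0. Of the 7 microglia markers 2 were called higher in LAG-3-/- microglia, and their sum was 36967, 25169 and 24007 CPM in LAG-3-/- replicates 1 to 3 against 33564 to 40226 CPM in LAG-3+/+ libraries. The neutrophil marker sum, a measure of other cells in the gate, ran from 0.269 to 3445 CPM in the LAG-3+/+ and from 1.03 to 4503 CPM in the LAG-3-/- libraries, with 0 of the 8 neutrophil markers tested called. The part of length and of these cells in the calls was not tested.

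At P120 no member was called between the genotypes. By edgeR 0 of 82 passed, with 2 at an unadjusted p under 0.05, where 0.0107% of all genes fell and 0% rose. DESeq2 also called 0 members, where 0.53% of all genes fell and 0.187% rose. The median log2 fold change was -0.33 (-0.01 over all genes), 77 members had a value below 0, and 12 had every LAG-3-/- library below every LAG-3+/+ library (6.63% of all genes). Atp5mk, a small membrane subunit of ATP synthase, had the smallest p, with 51.9, 61.5 and 40.9 CPM in LAG-3-/- and 82.4, 62.9 and 77.8 CPM in LAG-3+/+ microglia (log2 fold change -0.53, SE 0.21). LAG-3-/- replicate 2 was the highest of its group in 71 of 78 members. The length classes had medians of -0.24, -0.10, -0.036 and -0.0034, from short to long, and the members' median was -0.32 with transcript length and GC offsets and -0.23 with coding length and GC offsets, with 0 called in each. Neutrophil markers summed to 1662 to 2516 CPM in the LAG-3+/+ and to at most 1.02 CPM in the LAG-3-/- libraries, with 0 of the 8 tested called, and their part was not tested.

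**Figure D3:**
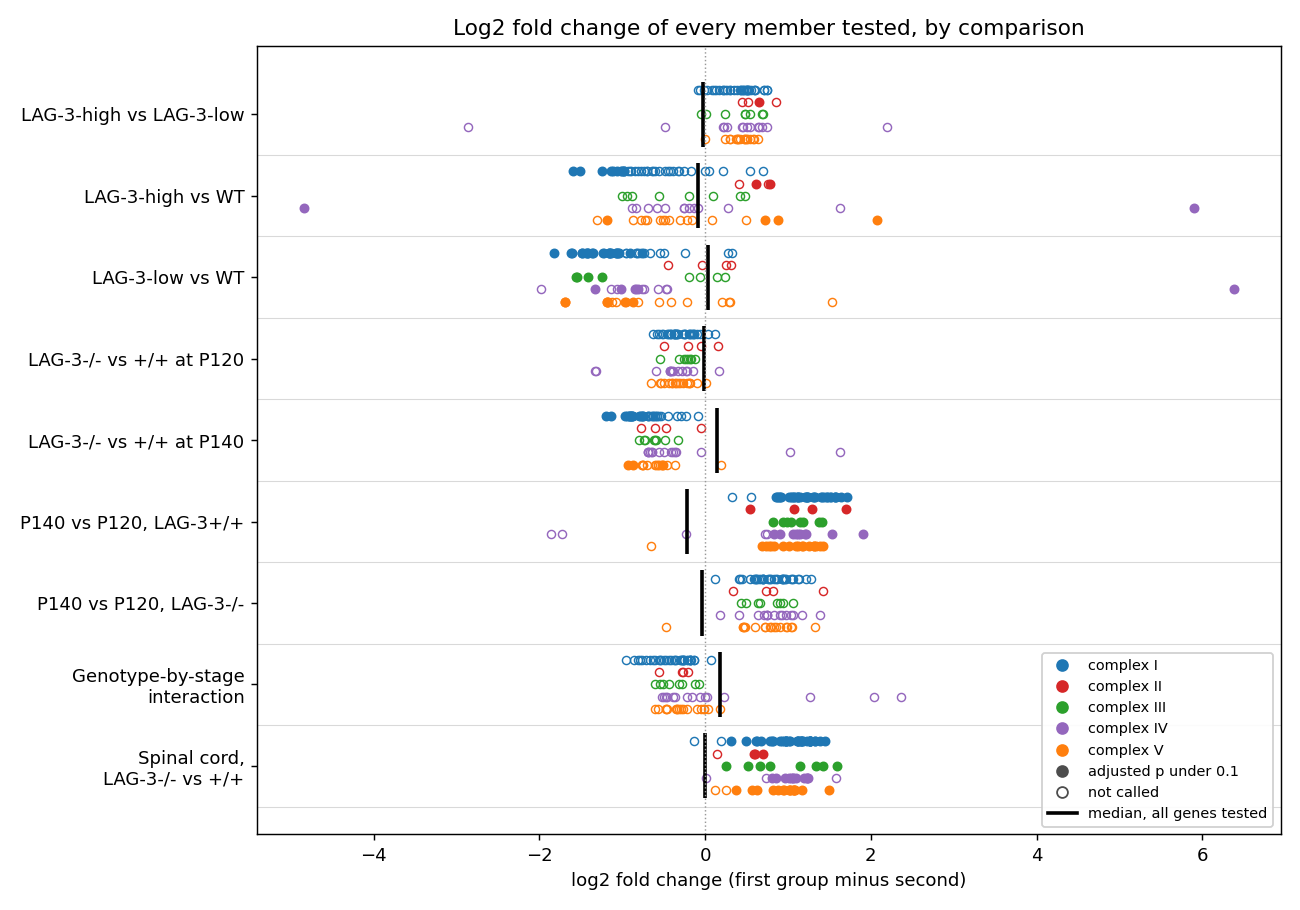
Log2 fold change (first group minus second) of every member tested in each comparison, with colours for complexes, filled points for an edgeR adjusted p under 0.1 and black bars for the median of all genes tested. Nearly all members lie to the right in P140 against P120 in LAG-3+/+ microglia (73 called) and in the cord (75 called), and to the left in LAG-3-low against WT (36 called).

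In the comparison of the 2 LAG-3 fractions 74 of 81 members had a log2 fold change above 0, favouring the LAG-3-high side, and the test called 1 of them. Sdhb (ENSMUSG00000009863, GRCm39 chr4:140688502-140709380, plus strand) encodes the iron-sulfur subunit of succinate dehydrogenase. It stood at 194, 188, 194, 207 and 176 CPM in LAG-3-high and at 135, 125, 140, 109 and 102 CPM in LAG-3-low libraries, with no overlap. The log2 fold change was 0.65 (SE 0.16, edgeR adjusted p = 0.0414), where 1.59% of all 16508 genes rose and 2.8% fell. The other 80 members did not pass, and Sdhb itself was not called without TMM factors (0.28) or with length and GC offsets (0.52).

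Separation between the fractions was more frequent than calls. In 44 of the 81 members every LAG-3-high library lay above every LAG-3-low library, against 8.95% of all genes, and none separated the other way (6.52%). At a log2 fold change above 1, 0 were called (0.818% of all genes). By complex, the members that separated were 15 of 37 in complex I, all 4 in complex II, 4 of 8 in complex III, 7 of 14 in complex IV and 14 of 18 in complex V. Summed over members, the LAG-3-high libraries held 7583 to 8160 CPM and the LAG-3-low libraries 5416 to 6484 CPM. The separations and sums rest on TMM factors, which were 0.830 to 0.915 in LAG-3-high and 1.07 to 1.17 in LAG-3-low libraries. Separation was not counted without these factors. The median log2 fold change was 0.46 against -0.02 over all genes.

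The number of calls depended on which libraries entered the fit. With WT libraries left out of the fit, 46 members rose and 1 fell, where 11.6% of all genes rose and 12.1% fell. Without WT replicates 1 and 4, an alternative added after seeing the data, 41 rose and 0 fell, where 7.24% of all genes rose and 7.13% fell. Without TMM factors 0 rose, and the median was 0.08 against -0.40 over all genes, since the members took 0.648% to 0.693% of the counts in LAG-3-high and 0.611% to 0.695% in LAG-3-low libraries. Neutrophil markers moved with the sort: 9 of the 10 were tested and all 9 fell on the LAG-3-high side, their sum was 0.141 to 4.86 CPM in LAG-3-high and 22627 to 65164 CPM in LAG-3-low libraries, and Elane was at 0 in every LAG-3-high library. The sums of the microglia (22858 to 25022 against 15444 to 22745 CPM, 1 called higher and 2 lower of 7), astrocyte (25.8 to 67.4 against 2.14 to 12.9 CPM) and endothelial markers (73.6 to 111 against 38.6 to 71.0 CPM) also separated the fractions, with the LAG-3-high range given first. Their part in the difference was not tested. The length classes had medians of 0.37 under 1 kb, 0.18, 0.11 and 0.03 over 4 kb.

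**Figure D4:**
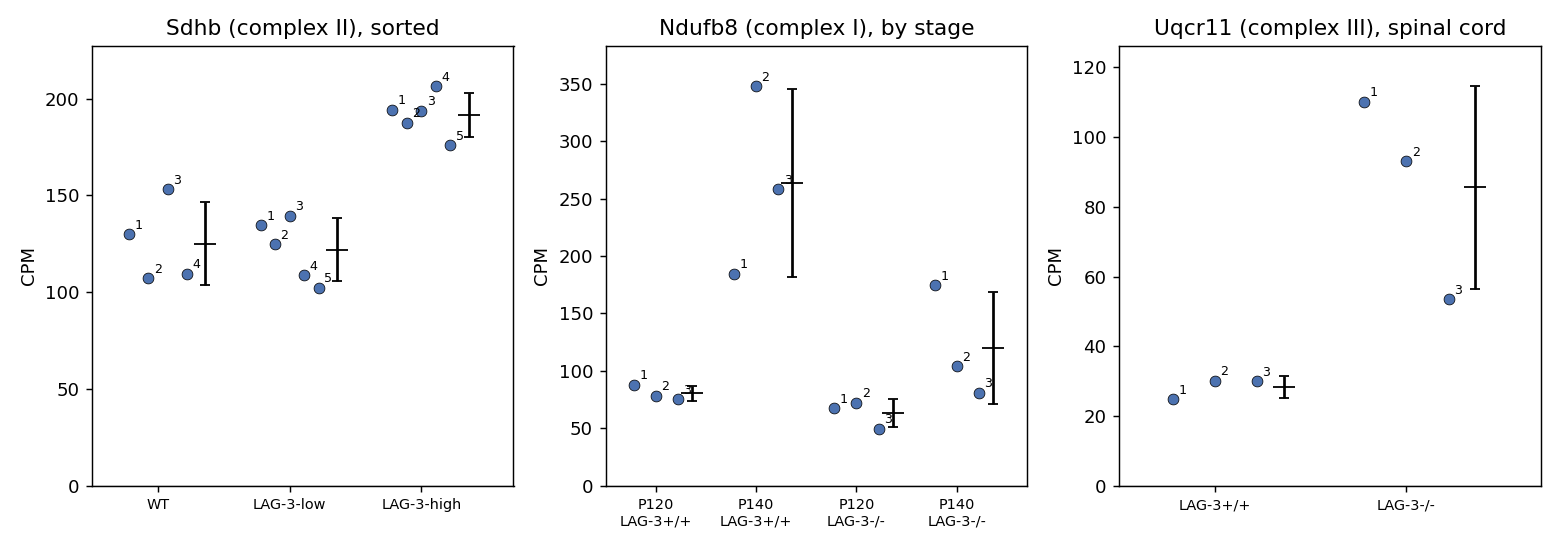
CPM of Sdhb in the sorted libraries, Ndufb8 in the stage libraries and Uqcr11 in the cord libraries; each point is a library with its replicate number, and the bar gives the mean and SD of the group. The 5 LAG-3-high libraries of Sdhb (176 to 207 CPM) lie above all others, and P140 LAG-3+/+ replicate 2 holds the highest value of Ndufb8 (348 CPM).

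Among the tissue isoforms, Cox6a2 separated the LAG-3 fractions. Cox6a2 (ENSMUSG00000030785, GRCm39 chr7:127804607-127805559, minus strand) is the heart and skeletal muscle form of subunit VIa of cytochrome c oxidase, and Cox6a1 the form found in most tissues. Cox6a2 stood at 74.1, 58.3, 63.7, 70.1 and 60.1 CPM in LAG-3-high and at 20.5, 12.5, 8.11, 9.25 and 21.1 CPM in LAG-3-low libraries, while the WT libraries read 56.1, 5.14, 0 and 23.4 CPM. The fractions did not overlap, but edgeR gave an adjusted p of 0.345. Cox6a1 read 145, 141, 123, 117 and 126 CPM in LAG-3-high and 83.5, 105, 94.8, 91.9 and 83.0 CPM in LAG-3-low libraries.

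Cox6a2 counts were 41.2% to 60.0% of Cox6a1 counts in LAG-3-high and 8.56% to 25.4% in LAG-3-low libraries. The mean log2 ratio was -1.0 ± 0.20 (SD, n = 5) in LAG-3-high and -2.78 ± 0.73 in LAG-3-low, a difference of 1.78 (p = 0.00794 by an exact permutation test, two-sided, the lowest value that 5 against 5 can give). Adjusted over the 25 isoform comparisons by the Benjamini-Hochberg method it was 0.198, and no other isoform ratio passed either. A single ratio at this lowest value could not pass after the adjustment. In the stage and cord experiments 3 against 3 libraries can give no permutation p under 0.1. These tests therefore cannot decide whether the ratios differ. Muscle markers summed to at most 1.602 CPM in these libraries, with Myh1 at 0 in both fractions. From P120 to P140 in LAG-3+/+ microglia Cox6a2 rose from 20.4, 11.2 and 16.8 to 58.5, 55.7 and 67.3 CPM (log2 fold change 1.91, SE 0.54, edgeR adjusted p = 0.0308), and with coding length and GC offsets it did not pass (adjusted p = 0.40).

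**Figure D5:**
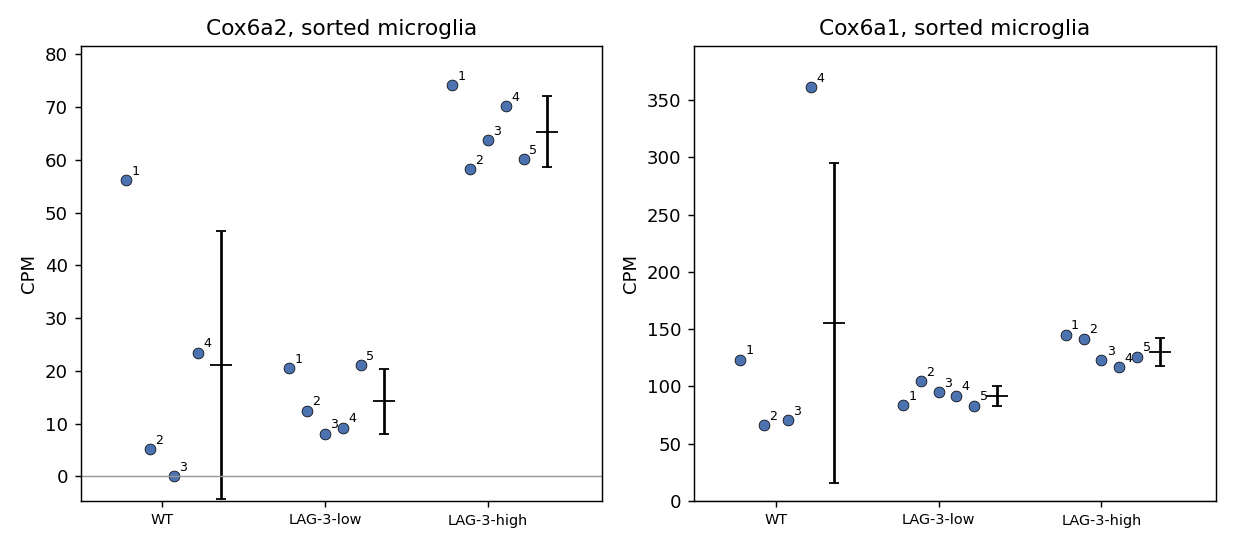
CPM of Cox6a2 and Cox6a1 in the sorted microglia; points are libraries with their replicate numbers and bars the mean and SD of a group. For Cox6a2 the LAG-3-high libraries (58.3 to 74.1 CPM) lie above every LAG-3-low library (8.11 to 21.1 CPM), while the WT libraries run from 0 to 56.1 CPM.

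The other isoform genes were near the limit of detection in microglia. Cox7a1, the muscle form of subunit VIIa, had 0 counts in all 4 WT libraries, at most 31 in LAG-3-low and at most 14 in LAG-3-high libraries, and edgeR called it higher in both fractions than in WT. Cox6b2, the testis form of subunit VIb, had 616 counts in WT replicate 4 and at most 39 in the other WT libraries, and was called lower in LAG-3-high microglia, where it had at most 22. Cox8b had no count in any microglial library, and Ndufa4l2, induced by hypoxia elsewhere, had none in microglia and 26 to 51 in the cord libraries.

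Against WT, the direction of the members depended on WT replicates 1 and 4. In LAG-3-low microglia 36 of 81 members fell and 1 rose by edgeR, where 12.9% of all genes fell and 12% rose, with 21 falls in complex I, 4 in complex III, 4 in complex IV, 7 in complex V and none in complex II. The median log2 fold change was -0.95 against 0.04 over all genes. In LAG-3-high microglia 12 fell and 6 rose, where 16.5% of all genes fell and 13.8% rose, with a median of -0.51 against -0.08. At a log2 fold change above 1, 2 rose (12.1% of all genes), and 3 had every LAG-3-high library above every WT library (12.4%). Without the 2 WT libraries 1 fell and 16 rose in LAG-3-low (median 0.20), where 6.37% of all genes fell and 11.3% rose with a median of 0.17. In LAG-3-high 0 fell and 43 rose (median 0.49), where 10.8% of all genes fell and 14.3% rose with a median of 0.0052. Only 2 members had every LAG-3-low library below every WT library (Ndufb10 and Cox7a2l; 5.95% of all genes). The length classes had medians of -0.82, -0.16, 0.25 and 0.26 in LAG-3-low and of -0.54, -0.069, 0.25 and 0.21 in LAG-3-high, from short to long. With transcript length and GC offsets 23 members fell and 2 rose in LAG-3-low (median -0.36), where 11.6% of all genes fell and 10.8% rose. With coding length and GC offsets 9 fell and 4 rose (median -0.11), where 11.2% of all genes fell and 11.6% rose. Of the 7 microglia markers 6 were called lower in LAG-3-low than in WT, with sums of 15444 to 22745 CPM against 28073 to 35104 CPM, and 2 of the 9 neutrophil markers tested were called higher. Their part was not tested.

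The largest fall in LAG-3-low microglia was in Ndufa12, an accessory subunit of complex I, which read 186, 34.1, 66.9 and 244 CPM in WT against 32.0, 40.5, 31.4, 35.6 and 47.6 CPM in LAG-3-low libraries (log2 fold change -1.83, SE 0.43, edgeR adjusted p = 0.0114). WT replicate 2 lay within the LAG-3-low range. Atp5if1 (-1.69), Atp5me (-1.69), Ndufs4 (-1.62) and Ndufa5 (-1.61) came next, and without the 2 WT libraries Atp5if1 had 0.10 and Atp5me 0.54 as log2 fold change. In LAG-3-high microglia the largest falls were in Ndufs4 (-1.6), Ndufb7 (-1.51), Ndufa8 (-1.24), Atp5if1 (-1.18) and Ndufa6 (-1.14), and without the 2 WT libraries the last 3 had 0.11, 0.57 and 0.23.

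Apart from Cox7a1 and Atp5mc2, both with group means under 5 CPM, the members that rose from WT to LAG-3-high were Sdha and Sdhb of complex II and Atp5f1b and Atp5f1d of ATP synthase. Atp5f1b stood at 223, 292, 401 and 198 CPM in WT and at 509, 460, 417, 447 and 461 CPM in LAG-3-high libraries, with no overlap (log2 fold change 0.72, SE 0.19, edgeR adjusted p = 0.0167). Sdhb also separated completely, at 130, 107, 153 and 110 CPM in WT, with a log2 fold change of 0.62 (SE 0.17, edgeR adjusted p = 0.0214). With length and GC offsets its value was -0.046 (edgeR adjusted p = 0.903). Atp5f1d, the delta subunit of the ATP synthase stalk, had 0.88 (SE 0.25) and Sdha 0.78 (SE 0.30, edgeR adjusted p = 0.0768). Sdha was called in 8 of the 14 fits that left out 1 library, and lost its call without WT replicate 1 or 4 or LAG-3-high replicate 1, 2, 4 or 5 (adjusted p up to 0.148). With transcript length and GC offsets 19 members rose and 7 fell in all (median 0.19), where 12.3% of all genes rose and 15.7% fell. With coding length and GC offsets 15 rose and 2 fell (median 0.16), where 14.1% of all genes rose and 15.8% fell. Neutrophil markers summed to 5955 to 70492 CPM in the WT libraries, and for LAG-3-high against WT the test called 8 of the 9 lower. Of the microglia markers 5 of 7 were called lower as well. Their part was not tested.

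In lumbar cord at P140, members of every complex were higher in SOD1G93A/LAG-3-/- than in SOD1G93A/LAG-3+/+ mice. The members summed to 7163, 8447 and 8286 CPM in the LAG-3+/+ cords and to 15301, 14510 and 11256 CPM in the LAG-3-/- cords. By edgeR 75 of 83 members rose and none fell, where 23.1% of all 17702 genes rose and 23.9% fell, with 36 of 38 in complex I, 3 of 4 in complex II, all 8 in complex III, 12 of 15 in complex IV and 16 of 18 in complex V. The median log2 fold change was 1.02, against 0.00 over all genes. In 74 members every LAG-3-/- library lay above every LAG-3+/+ library, against 25.5% of all genes. At a log2 fold change above 1, 43 rose (4.37% of all genes).

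Uqcr11 (ENSMUSG00000020163, GRCm39 chr10:80236542-80242676, minus strand), a small subunit of complex III, stood at 24.8, 30.1 and 30.0 CPM in LAG-3+/+ and at 110, 93.2 and 53.5 CPM in LAG-3-/- cords (log2 fold change 1.60, SE 0.25, edgeR adjusted p = 0.00253). Atp5f1e, the epsilon subunit of the ATP synthase stalk, rose from 46.0, 35.4 and 42.9 CPM to 144, 126 and 81.1 CPM (1.5, SE 0.20, edgeR adjusted p = 0.000788). In both, LAG-3-/- replicate 3 was the lowest of its group but above all LAG-3+/+ libraries. Ndufa2 (1.45), Uqcrq (1.43), a ubiquinone-binding subunit of complex III, and Ndufs6 (1.39) were the next largest, and Cox4i1 rose from 234, 283 and 296 CPM to 764, 670 and 472 CPM (1.23, SE 0.18). Replicate 3 was the lowest LAG-3-/- cord in 73 of 77 members.

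Sdha, Ndufs1 and Atp5f1a were not called in the cord. Sdha read 387, 477 and 443 CPM in LAG-3+/+ and 465, 486 and 489 CPM in LAG-3-/- cords (log2 fold change 0.14, SE 0.12, edgeR adjusted p = 0.393). Ndufs1 read 130, 161 and 147 CPM against 125, 143 and 132 CPM (-0.13, SE 0.12, edgeR adjusted p = 0.399), the only member with a value below 0. Atp5f1a did not pass at 0.26 (SE 0.13, edgeR adjusted p = 0.154), and Atp5f1b passed at 0.37 (SE 0.14, edgeR adjusted p = 0.054). The other 5 not called were Cox4i2, Cox6a2, Cox6b2, Ndufa4l2 and Atp5mc2, all with group means under 6 CPM. Complex V took 38.4% to 39.7% of the members' sum in LAG-3+/+ and 33.5% to 36.3% in LAG-3-/- cords, and complex IV 15.7% to 16.0% and 17.7% to 20.9%.

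Spearman's rank correlation of the log2 fold change with coding length was -0.60 over 83 members in the cord and -0.085 over 82 members for P140 against P120 in LAG-3+/+ microglia, both given as descriptions of genes that share libraries. Over protein-coding genes in the cord the medians were 0.76 under 1 kb, 0.46 for 1 to 2 kb, 0.06 for 2 to 4 kb and -0.33 over 4 kb, and the count-weighted mean transcript length was 4305 to 4449 nt in LAG-3+/+ and 3403 to 3873 nt in LAG-3-/- cords. With transcript length and GC offsets 65 members rose, all among the 75, with a median of 0.62. With coding length in their place 68 rose and 2 fell, with a median of 0.49. The share of all genes called in the fits with offsets is not given here, so these counts lack that background. Cell-type markers also moved: 4 of 6 oligodendrocyte markers were higher and their sum went from 16796 to 18330 CPM in LAG-3+/+ to 23780 to 33225 CPM in LAG-3-/- cords, 4 of 6 astrocyte markers were lower (12867 to 14718 against 7464 to 12025 CPM), and 0 of 9 neuron markers passed. Of 7 microglia markers 3 were lower and 1 higher (1103 to 1386 CPM in LAG-3+/+ against 790 to 1078 CPM), and of 4 endothelial markers 1 was lower and 1 higher (128.6 to 136.5 against 99.5 to 114.6 CPM). Their part and that of length were not tested. LAG-3-/- cord replicate 2 also held muscle transcripts, with a marker sum of 1030 CPM against 0.43 to 1.05 CPM in the other cords. It was the cord with the most Cox6a2 (11.6 CPM), yet without it 70 members rose. That count too is given without the share of all genes.

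Other genes of the pathway were counted from gene lists, which were chosen with earlier results of these data known. Over all genes tested, 23.1% rose and 23.9% fell in the cord and 11.9% rose and 15.5% fell from P120 to P140 in LAG-3+/+ microglia. In LAG-3-high against LAG-3-low microglia 1.59% rose and 2.8% fell. The lists are to be read against these shares. The 13 subunits encoded by the mitochondrial genome rose in the cord in 11 cases (median log2 fold change 1.19), in LAG-3-high against LAG-3-low microglia in 6 (median 1.05) and from P120 to P140 in LAG-3+/+ microglia in 6 (median 0.30), with none falling. The cord libraries held 55142, 41539 and 63155 CPM of them in LAG-3+/+ and 154773, 148523 and 73503 CPM in LAG-3-/- mice. In LAG-3-low against WT microglia 10 of them fell and none rose, where 12.9% of all genes fell and 12% rose. Their sum was 27382.5 and 40261 CPM in WT replicates 1 and 4 but 6520 and 12815 CPM in WT replicates 2 and 3. The LAG-3-low libraries held 4934 to 7441 CPM, a range that includes WT replicate 2. In LAG-3-/- microglia at P140 3 fell and none rose, where 3% of all genes fell. Assembly factors, which build the complexes but are not part of them, rose in 34 of 54 cases and fell in 2 in the cord (median 0.43), with Fmc1 at 1.43 and Cox14 at 1.08, and rose in 21 of 55 and fell in 1 from P120 to P140 (median 0.92).

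Of 9 carriers and cytochrome c genes, all 9 rose in the cord and 7 from P120 to P140, with log2 fold changes of 1.35 for Slc25a5, an ADP/ATP carrier, and 1.26 for Vdac3, a channel of the outer membrane. Of 16 enzymes of the tricarboxylic acid cycle and pyruvate dehydrogenase, 8 rose and 1 fell from P120 to P140. Pdhb rose (1.31), while Ogdh, the first subunit of the oxoglutarate dehydrogenase complex, fell from 123.9 to 24.6 CPM on average (-2.33, edgeR adjusted p = 0.00557). Of the regulators of mitochondrial biogenesis, 1 of 14 rose in the cord (Esrra, 0.68) and 5 fell, among them Ppargc1a (-0.64) and Ppargc1b (-1.53), and from P120 to P140 0 of 13 rose and 3 fell, with Polg, the mitochondrial DNA polymerase, at -1.80 and Gabpa at -1.53. Protein-coding genes with transcripts over 4 kb had a median of -1.04 from P120 to P140 and -0.33 in the cord. For transcripts under 1 kb these medians were 1.0 and 0.76. The part of length in the rises and falls of these lists was not tested.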

How the data were processed

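The SMART-seq mRNA HT LP kit was used for microglia, and the NEBNext Ultra II Directional kit for the cord. Per the submitters' processing notes, the authors trimmed reads with Trim Galore 0.6.7, quantified transcripts with Salmon 1.9.0 against GRCm39 and summed them to genes with tximport in R 4.2.1. The annotation release is not given in the sources used here. The deposited values are estimated counts per gene, one table per experiment, and were rounded to whole numbers. Genes without an annotation entry held 0.0479%, 0.0514% and 0.0145% of the counts of the sorted, stage and cord tables.

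Each table was analysed separately with all its groups in one fit in R 4.3.3, using edgeR 4.0.16: a filter of 10 counts in the smallest group and 15 in total, TMM factors, the quasi-likelihood test and Benjamini-Hochberg adjustment over all genes tested, with calls at an adjusted p under 0.1. CPM values are scaled by TMM factors. DESeq2 1.42.0, which the authors used, was an alternative, and the closing section gives the others. Isoform ratios used 0.5 as pseudocount and an exact permutation test. The scripts were tested on simulated data. Sequences came from RefSeq for GRCm38.p6.

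Named genes were a core set of subunits and the tissue isoforms, and in each comparison the 5 largest called rises and falls at 10 CPM or more on average, or else the 3 smallest p values. Members separating WT from LAG-3-low libraries, members lost with a setting and single-library cases were named after their values were seen. The members and lists were chosen with earlier results of these data known. The labels do not tie libraries to separate animals, so p-values measure only the spread between libraries, which may be technical.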

Additional observations from a re-analysis of the deposited data

Results flagged for a closer look

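In 4 of the 66 groups of member values examined, 1 library stood far from the others of its group, where chance gives about 1 in 20. Uqcrc1, a core subunit of complex III, stood at 252.5 CPM in WT replicate 3, with the next WT library at 130.8 CPM, and at 226.2 CPM in LAG-3-low replicate 2, with the next LAG-3-low library at 180.8 CPM. Cox6b2, the testis form of subunit VIb, stood at 39.08 CPM in WT replicate 4 against 3.398 CPM in the next WT library, and at 1.354 CPM in LAG-3-high replicate 3 against 0.2819 CPM in the next LAG-3-high library.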

How the results depend on the processing

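The direction against WT and the number of calls between groups of microglia depended most on the processing. The rise in the cord kept its direction under every alternative run. From P120 to P140 in LAG-3+/+ microglia the members' median stayed positive. Its calls, however, went from 73 higher to 15 higher and 1 lower with coding length and GC offsets. For LAG-3-high against LAG-3-low (1 member higher, 0 lower), 0 were higher at a log2 fold change above 1, without TMM factors or without the filter. With transcript length and GC offsets 9 were higher (2.36% of all genes), and with coding length and GC offsets 2 (2.08%). Without WT replicates 1 and 4 41 were higher, and with only the 2 groups fitted 46 were higher and 1 lower. For the comparisons with WT, percentages are shares of all genes called the same way in the same fit. For LAG-3-high against WT (6 higher, 12 lower), the members higher numbered 2 at a log2 fold change above 1 (12.1%), 1 without TMM factors (9.93%) and 3 with the replicate block (11.3%). They numbered 19 with transcript length offsets (12.3%), 15 with coding length offsets (14.1%), 2 of 79 with only the 2 groups (8.49%) and 43 without WT replicates 1 and 4 (14.3%). Those lower numbered 33 without TMM factors (22.4%), 3 without the filter (3.71%), 6 with sex as covariate (13.9%) and 0 with the replicate block (8.44%). They numbered 7 and 2 with the 2 kinds of length offset (15.7% and 15.8%), 2 of 79 with only the 2 groups (11.4%) and 0 without WT replicates 1 and 4 (10.8%). For LAG-3-low against WT (1 higher, 36 lower), the members higher numbered 0 with the replicate block (9.21%) and 2 and 4 with the length offsets (10.8% and 11.6%). They numbered 0 with only the 2 groups (6.11%) and 16 without WT replicates 1 and 4 (11.3%). Those lower numbered 11 without the filter (2.51%), 6 with the replicate block (5.76%) and 23 and 9 with the length offsets (11.6% and 11.2%). They numbered 4 of 80 with only the 2 groups (5.56%) and 1 without WT replicates 1 and 4 (6.37%). With only the 2 groups, no count in either comparison with WT exceeded the share of all genes. For LAG-3-/- against LAG-3+/+ at P140 (14 lower), 2 were lower at a log2 fold change above 1 (1.45% of all genes), 4 without TMM factors (1.3%) and 4 without the filter (0.685%). With DESeq2 47 were lower (10.2% of all genes), with sex as covariate 6 (1.8%), with the replicate block 3 (1.01%), and with the length offsets 4 and 1. DESeq2 called 20 higher (1.92% of all genes) from P120 to P140 in LAG-3-/- microglia. From P120 to P140 in LAG-3+/+ microglia (73 higher), 43 were higher without TMM factors (5.2% of all genes), and 15 were higher and 1 lower with coding length offsets. In the cord (75 higher), 43 were higher at a log2 fold change above 1, and 2 were lower with coding length offsets.

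Leaving out 1 library at a time gave 0 to 7 members higher in LAG-3-high against LAG-3-low, 3 to 11 higher and 1 to 35 lower in LAG-3-high against WT, and 1 to 4 higher and 9 to 58 lower in LAG-3-low against WT. In LAG-3-high against WT, 11 were higher and 1 lower without WT replicate 4 (14.2% and 14.6% of all genes), and 5 and 35 without WT replicate 2 (19.7% and 19.2%). In LAG-3-low against WT, 9 were lower without WT replicate 4 (10.4% of all genes) and 58 without WT replicate 2 (16.9%). It gave 47 to 75 higher from P120 to P140 in LAG-3+/+ microglia, 0 to 53 lower at P140, 0 to 4 lower for the interaction and 70 to 77 higher in the cord. Sdhb was not called between the LAG-3 fractions without LAG-3-low replicate 4 or 5 or LAG-3-high replicate 1, 3 or 4 (edgeR adjusted p of 0.104 to 0.124). In LAG-3-high against WT, Sdhb changed sign with transcript length and GC offsets (-0.046), and without WT replicates 1 and 4 so did Ndufa8 (0.11), Atp5if1 (0.57) and Ndufa6 (0.23), as did Atp5if1 (0.10) and Atp5me (0.54) in LAG-3-low against WT. The cause was not tested. The coding length offsets and the fit without both WT libraries were chosen after seeing the data. Libraries of the same number had a mean correlation of their deviations of 0.021, -0.0087 and -0.0065 in the sorted, stage and cord experiments. For LAG-3-low with LAG-3-high it was 0.052 (-0.0022 to 0.122) against -0.013 for other pairs, and the labels do not say whether fractions of one number share an animal. The paper separated P140 SOD1G93A microglia into both fractions, and in both replicates 1 to 3 were male and 4 and 5 female. Not every pair exceeded 0.1, and the main fit took no pairing, so its p-values ignore any animals that the fractions share. With the replicate block 1 member was higher between the fractions. That block also tied WT libraries to the fractions by number, so it is not a paired test of the fractions. The interaction's median turned from -0.30 to 0.16 with coding length and GC offsets. Of the tests of single members, 711 kept their call and direction, 127 were no longer past the threshold, 5 newly passed it and 6 changed sign. Members under a few CPM were limited by depth.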

Other observations

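Ribosomal proteins, which also have short transcripts, were counted beside the members. Over all genes tested, the shares that rose and fell were 23.1% and 23.9% in the cord, 11.9% and 15.5% from P120 to P140 in LAG-3+/+ microglia, 1.59% and 2.8% between the LAG-3 fractions, and 7.22% and 3% between the genotypes at P140. In the cord all 78 cytosolic ribosomal proteins tested were higher in LAG-3-/- mice (median log2 fold change 0.82), as were 65 of 78 mitochondrial ribosomal proteins (median 0.64). From P120 to P140 in LAG-3+/+ microglia 48 of 78 mitochondrial ribosomal proteins rose and none fell (median 1.06), while 18 of 79 cytosolic ribosomal proteins rose and 1 fell (median 0.37). Between the LAG-3 fractions 10 cytosolic ribosomal proteins were higher in LAG-3-high microglia and none lower (median 0.81). At P140, 10 mitochondrial ribosomal proteins were lower in LAG-3-/- microglia and none higher (median -0.66). Whether the members differ from these lists was not tested.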
